A study of Mus musculus with 16 samples.

Results

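Immediate early genes are switched on within minutes of a stimulus, from factors already present in the cell and without new protein synthesis. The stimulus acts through kinases such as ERK and p38 on factors already bound at the promoters, among them SRF with its ETS partners and CREB. In neurons, depolarization is the usual stimulus; in glia, growth factors, injury and stress are. Enzymatic dissociation and sorting of brain tissue are also known to induce these genes, so their level in sorted cells holds whatever happened to the cells between dissection and lysis. Here 10 of them were described: Fos, Fosb, Jun, Junb, Egr1, Atf3, Ier2, Btg2, Nr4a1 and Dusp1, found by symbol among 53379 genes in the count files, where each had 1 identifier.

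The libraries came from green cells of the mouse neocortex at postnatal day 4, labelled by mosaic analysis with double markers (MADM) on chromosome 7 under Emx1-Cre, which acts in the dorsal forebrain lineage, in mice labelled CD1. All animals carried XGFAP-lacZ, a lacZ transgene driven by the human GFAP promoter. Tissue was digested with papain and stained for lacZ, and the sort took GFP+/lacZ+ cells for astrocytes and GFP+/lacZ− cells for neurons. In control-MADM animals the green cells were Eed+/+, and in Eed-MADM animals they were Eed-/- within a tissue that is mostly heterozygous. Eed is a core subunit of Polycomb repressive complex 2. Labels placed 15 of 16 libraries in 4 groups: Eed+/+ astrocytes (n = 5), Eed-/- astrocytes (n = 5), Eed+/+ neurons (n = 2) and Eed-/- neurons (n = 3). Individual animals served as replicates in the sort. No unsorted tissue was analysed here, so induction during dissociation and expression in the intact cortex cannot be told apart. In bulk libraries of sorted cells, fewer cells of a type and less RNA per cell cannot be told apart either.

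Of the 15 labelled libraries, 10 lay within the alignment limits, meaning at least 60% of reads and at least 1000000 reads uniquely aligned. Outside lay Eed+/+ astrocyte replicate 3, Eed-/- astrocyte replicates 1, 3 and 4, and Eed+/+ neuron replicate 2. Reads summed over genes ranged from 994077 to 3178529 within the limits and from 211736 to 477760 outside. Levels are given as reads per 1000000 gene reads (CPM). A count of 0 allows up to 14.2 CPM in the shallowest library (3 reads) and up to 1.85 CPM in Eed+/+ astrocyte replicate 5, counting error only. Eed itself was at 41.9, 64.2, 4.19, 35.3 and 25.3 CPM in Eed+/+ astrocytes and at 0, 13.8, 0, 0 and 14.1 CPM in Eed-/- astrocytes, replicates 1 to 5. In neurons it was at 67.7 and 75.7 CPM in Eed+/+ and at 16.7, 36.0 and 32.7 CPM in Eed-/- libraries. Whole-gene counts include exons outside the deletion, so reads in Eed-/- libraries do not speak against the label, and in astrocytes 1 Eed+/+ library (replicate 3) lay in the range of the Eed-/- astrocytes.

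Marker genes were compared with the sorted labels. Over all labelled libraries, 11 astrocyte markers summed to between 3120 and 24641 CPM in astrocyte libraries and between 7376 and 22122 CPM in neuron libraries. Within the limits these ranges were apart, 12019 to 24641 CPM in astrocyte and 7376 to 9250 CPM in neuron libraries. The 11 neuron markers summed to between 5.22 and 4431 CPM in astrocyte libraries and between 1184 and 2813 CPM in neuron libraries, and they did not separate the labels. Nor did 7 oligodendrocyte lineage markers, which summed to between 209 and 4703 CPM in astrocyte libraries and between 1257 and 3890 CPM in neuron libraries. In neuron libraries their sums were thus of the same order as those of the neuron markers. Eed-/- astrocyte replicate 1 stood apart: 11 microglia markers summed to 16593 CPM there, against 0 to 445 CPM in the labelled libraries other than this one and Eed-/- astrocyte replicate 3 (3019 CPM). Its 5 erythroid markers summed to 8829 CPM, below the 11925 CPM of Eed-/- astrocyte replicate 4 and above the 0 to 52.0 CPM of the other labelled libraries. The values that rest most on replicate 1 are also given without it.

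The promoters of 4 of the genes are shown because they carry the sequence through which CREB and its relatives are known to act, the cyclic AMP response element (CRE), TGACGTCA, or its core, TGACG. A 300-base window, from 250 bases before the RefSeq start to 50 after it, was at hand for 8 of the 10 genes in the RefSeq table (GRCm38.p6). Fos (chr12:85473640-85473939, plus strand) held the core at 129 and 66 bases upstream of the start. Btg2 (chr1:134079106-134079405, minus strand) held the whole palindrome 166 bases upstream, and Dusp1 (chr17:26508423-26508722, minus strand) held it 143 bases upstream with a further core at 191. Nr4a1 (chr15:101266596-101266895, plus strand) held 4 cores, all on the opposite strand and so read as CGTCA. Capitals mark these letters.
Fos: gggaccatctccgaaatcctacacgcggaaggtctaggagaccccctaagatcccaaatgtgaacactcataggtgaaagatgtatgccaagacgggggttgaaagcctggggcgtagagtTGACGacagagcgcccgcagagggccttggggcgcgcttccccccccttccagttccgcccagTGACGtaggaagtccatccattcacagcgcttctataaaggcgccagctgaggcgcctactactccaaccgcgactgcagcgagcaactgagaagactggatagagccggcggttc
Btg2: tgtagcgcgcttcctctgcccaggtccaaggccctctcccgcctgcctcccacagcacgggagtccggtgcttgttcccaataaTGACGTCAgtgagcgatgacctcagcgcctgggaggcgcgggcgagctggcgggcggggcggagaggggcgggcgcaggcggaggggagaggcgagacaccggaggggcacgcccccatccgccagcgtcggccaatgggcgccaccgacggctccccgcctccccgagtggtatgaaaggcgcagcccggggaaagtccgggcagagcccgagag
Dusp1: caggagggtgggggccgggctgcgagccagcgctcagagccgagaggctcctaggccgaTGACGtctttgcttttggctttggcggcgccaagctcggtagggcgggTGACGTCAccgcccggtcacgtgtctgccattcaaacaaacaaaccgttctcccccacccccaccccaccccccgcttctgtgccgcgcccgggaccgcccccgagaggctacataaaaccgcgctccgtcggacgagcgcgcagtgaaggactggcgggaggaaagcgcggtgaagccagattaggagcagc
Nr4a1: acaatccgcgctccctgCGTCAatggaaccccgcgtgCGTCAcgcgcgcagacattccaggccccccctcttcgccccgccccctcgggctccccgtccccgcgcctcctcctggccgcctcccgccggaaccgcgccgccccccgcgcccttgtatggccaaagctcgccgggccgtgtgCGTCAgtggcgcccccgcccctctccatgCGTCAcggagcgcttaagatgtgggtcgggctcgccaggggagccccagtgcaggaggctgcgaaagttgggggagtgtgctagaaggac

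The core TGACG on either strand was present in 7 of the 8 windows (all but Jun), against 20.8% of 32851 promoters of the same length. The whole CRE, which contains the core on both strands, was present in 2 of 8, against 1.79%. An EGR site, GCGNGGGCG on either strand, was present in Btg2, Fosb and Nr4a1, 3 of 8, against 5.55%. The AP-1 letters TGANTCA were in 0 of 8 windows (7.81% of all promoters) and the CArG box, the SRF site, in 0 of 8 (1.63%). These are matches of letters in a window and no measurement of binding.

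The share of the 10 genes in a library varied widely. Their summed level was 4109.9, 6137, 645, 2954 and 1675 CPM in Eed+/+ astrocytes 1 to 5. In Eed-/- astrocytes 1 to 5 it was 10306, 3221, 1864, 4.72 and 4365 CPM. In Eed+/+ neurons it was 3446 and 3073 CPM and in Eed-/- neurons 7406, 5798 and 4473 CPM. The highest and the lowest were both Eed-/- astrocyte libraries outside the alignment limits. Within the limits the sum ranged 3.66-fold in Eed+/+ astrocytes (n = 4), 1.36-fold in Eed-/- astrocytes (n = 2) and 1.66-fold in Eed-/- neurons (n = 3). Eed-/- astrocyte replicate 4 held a single read over all 10 genes, a read of Jun.

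**Figure D1:**
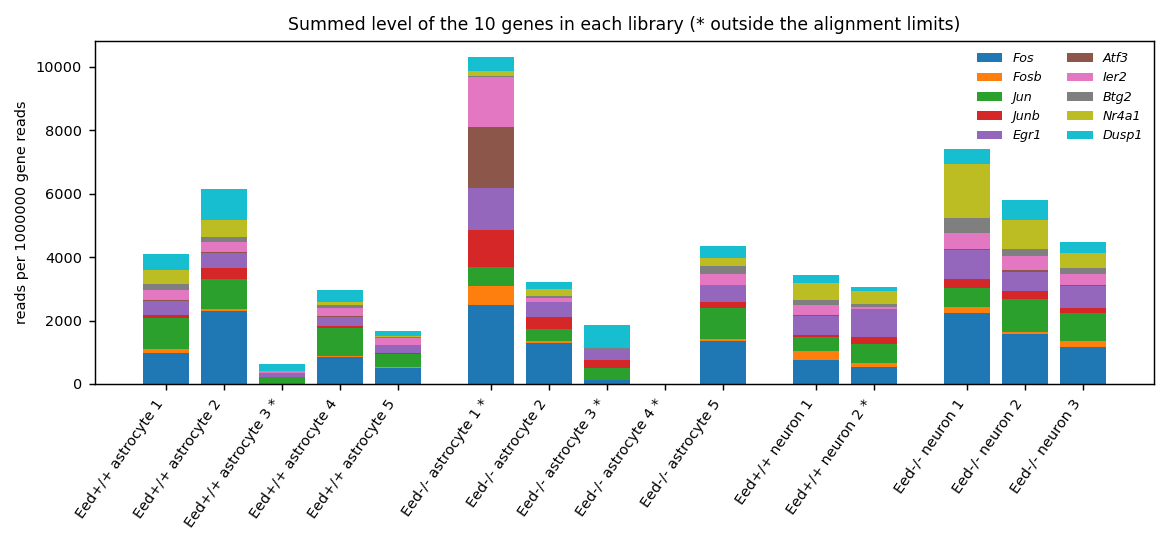
Stacked bars give the level of each of the 10 genes in each labelled library in reads per 1000000 gene reads, with an asterisk for libraries outside the alignment limits. The tallest bar, 10306, and the lowest, 4.72, are Eed-/- astrocyte replicates 1 and 4, and the 3 Eed-/- neuron bars (4473 to 7406) stand above both Eed+/+ neuron bars (3073 and 3446).

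Fos encodes the Fos subunit of AP-1, a dimer with a Jun protein that binds DNA, and is the classical marker of recent neuronal activity. It was at 989.9, 2290.1, 0, 845 and 503 CPM in Eed+/+ astrocytes, and at 2490.5, 1278, 136, 0 and 1350.0 CPM in Eed-/- astrocytes. In neurons it was at 764 and 524 CPM in Eed+/+ and at 2238, 1575 and 1151 CPM in Eed-/- libraries. The astrocyte groups overlapped over their whole range, with a library at 0 in each, while all 3 Eed-/- neuron libraries lay above both Eed+/+ ones. Fosb, a related AP-1 subunit encoded on the MADM chromosome (chr7:19302696-19310051, minus strand, in GRCm38), was far lower, at 112, 70.8, 0, 30.8 and 25.3 CPM in Eed+/+ astrocytes and 587, 63.5, 0, 0 and 57.3 CPM in Eed-/- astrocytes. It was at 269.8 and 148 CPM in Eed+/+ neurons and at 182, 53.4 and 192 CPM in Eed-/- neurons. Among libraries within the limits, 3 of the 4 neuron libraries lay above every astrocyte library, and Eed-/- neuron replicate 2 lay among the astrocytes.

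Jun, the partner that completes the AP-1 dimer and is also phosphorylated by the JNK stress kinases, was the only one of the 10 with a read in every labelled library. It was at 965, 935, 228, 873 and 419 CPM in Eed+/+ astrocytes and at 598, 406, 357, 4.72 and 974 CPM in Eed-/- astrocytes. Eed+/+ neurons had 439.9 and 602 CPM and Eed-/- neurons 619.9, 1049 and 891 CPM. Astrocyte groups overlapped, and the Eed-/- neurons were above both Eed+/+ neurons, the nearest pair 602 against 619.9. Junb, a Jun relative and weaker activator, was at 112, 371, 0, 69.9 and 15.4 CPM in Eed+/+ astrocytes and at 1188, 352, 258, 0 and 193 CPM in Eed-/- astrocytes. Eed+/+ neurons had 70.5 and 201 CPM and Eed-/- neurons 271, 251 and 151 CPM. Groups overlapped in both cell types. Counting took no account of strand, and exons of Jun overlap the antisense gene Junos, exons of Junb overlap Prdx2 and exons of Dusp1 overlap Ergic1, so reads in those stretches were set aside as ambiguous.

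Atf3 encodes a CREB-family repressor induced by cell damage and by the integrated stress response. It was at 22.4, 38.7, 0, 17.9 and 0 CPM in Eed+/+ astrocytes, at 1929, 0, 0, 0 and 16.1 CPM in Eed-/- astrocytes, at 34.7 and 0 CPM in Eed+/+ neurons, and at 30.2, 70.5 and 20.4 CPM in Eed-/- neurons. One library, Eed-/- astrocyte replicate 1, thus held 739 of the gene's reads in its group, with 16 reads in replicate 5 and none in the others. Outside that library the level never passed 70.5 CPM.

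Egr1, a zinc finger transcription factor induced with Fos, was at 438, 455, 103, 304 and 265 CPM in Eed+/+ astrocytes and at 1300.0, 492, 312, 0 and 543 CPM in Eed-/- astrocytes. Eed+/+ neurons had 588 and 873 CPM and Eed-/- neurons 921, 591 and 699.9 CPM. Every neuron library lay above every astrocyte library apart from Eed-/- astrocyte replicate 1, and the genotypes overlapped in both cell types. Nr4a1, an orphan nuclear receptor, had the largest absolute log2 fold change between the sorted populations over all 15 libraries, though not within the limits. It was at 417, 531, 0, 105 and 36.4 CPM in Eed+/+ astrocytes and at 154, 205, 0, 0 and 264 CPM in Eed-/- astrocytes. Eed+/+ neurons had 550.1 and 387 CPM and Eed-/- neurons 1699.7, 926 and 467 CPM. Only Eed+/+ astrocyte replicates 1 and 2 reached the neuron range, and within neurons the genotypes overlapped.

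Ier2, which encodes a nuclear immediate early protein, was at 339, 315, 71.2, 255 and 219 CPM in Eed+/+ astrocytes and at 1595, 121, 0, 0 and 337 CPM in Eed-/- astrocytes. Eed+/+ neurons had 326 and 64.0 CPM and Eed-/- neurons 511, 451 and 355 CPM. Btg2, an antiproliferative gene induced by p53 and by growth factors, was at 185, 160.5, 0, 94.8 and 34.5 CPM in Eed+/+ astrocytes and at 31.3, 61.4, 71.9, 0 and 251 CPM in Eed-/- astrocytes. Eed+/+ neurons had 143 and 119 CPM and Eed-/- neurons 447, 199 and 198 CPM. For both genes the Eed-/- neurons lay above both Eed+/+ neurons, and the astrocyte groups overlapped. Dusp1 encodes the phosphatase that switches off p38, JNK and ERK, and so closes the loop on the kinases that induce the other genes. It was at 529.5, 971, 243, 358 and 157 CPM in Eed+/+ astrocytes, at 433, 241, 729, 0 and 379 CPM in Eed-/- astrocytes, at 259.7 and 154 CPM in Eed+/+ neurons, and at 485, 632 and 347 CPM in Eed-/- neurons. Again only the neuron groups were apart.

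**Figure D2:**
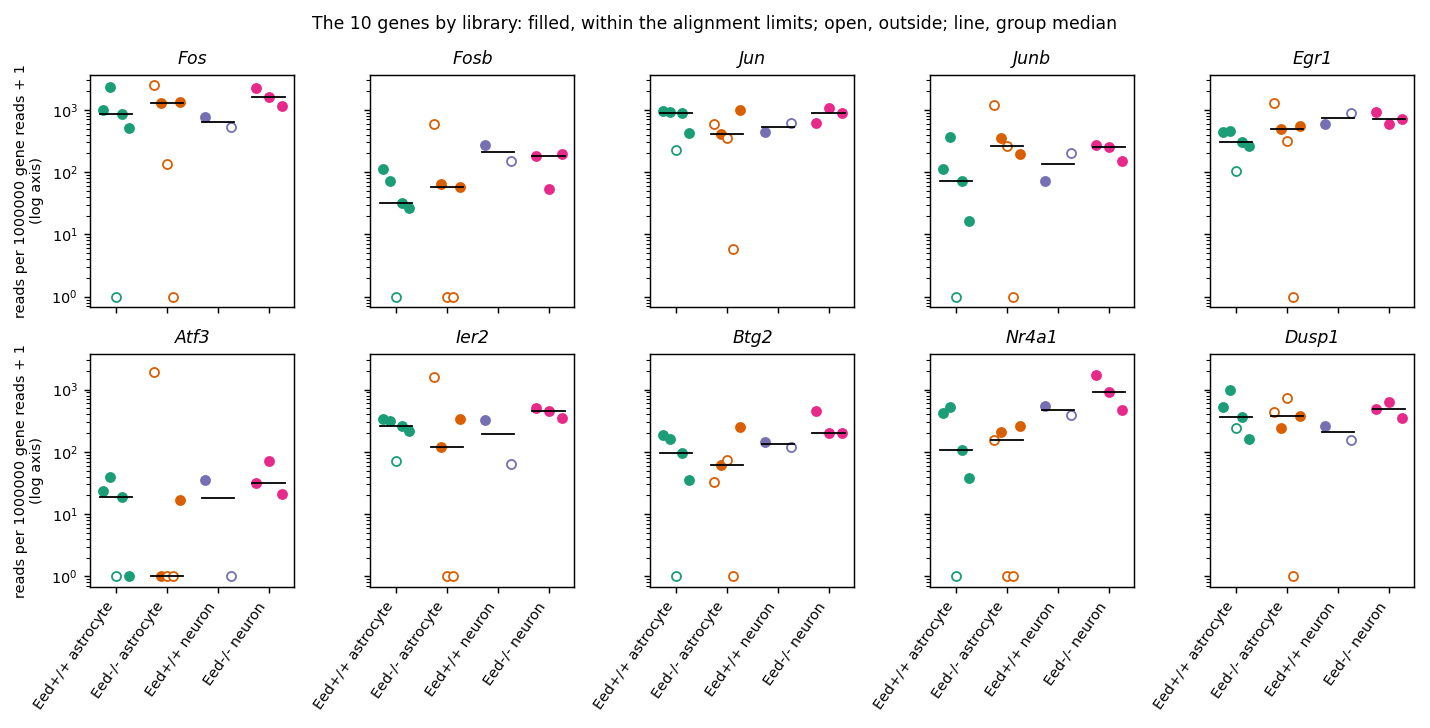
Each panel plots 1 gene, with reads per 1000000 gene reads plus 1 on a log axis, 1 point per labelled library and a line at the group median; open points are libraries outside the alignment limits. Most points at the floor are open, Atf3 reaches 1929 in a single Eed-/- astrocyte library, and Nr4a1 is at or below 531 in every astrocyte library.

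Per kilobase of exon, and over libraries within the limits, Fos was the most abundant of the 10 in both populations, at 514 ± 260 CPM per kb in astrocytes (SD, n = 6) and 609 ± 268 in neurons (SD, n = 4). It was above the next gene in 6 of 6 astrocyte and 4 of 4 neuron libraries. In astrocytes it was followed by Jun (239 ± 85.6), Ier2 (174 ± 55.9), Dusp1 (133 ± 87.5), Egr1 (92.8 ± 24.3), Junb (80.7 ± 64.4), Nr4a1 (74.0 ± 53.3), Btg2 (47.9 ± 30.0), Fosb (9.59 ± 4.99) and Atf3 (7.36 ± 6.80). No neighbours in this order were separated in range. In neurons Nr4a1 (259.5 ± 160.3 CPM per kb) came after Ier2 (269.9 ± 56.2) and before Jun (235 ± 85.4). Egr1 (156 ± 34.8), Dusp1 (130 ± 49.2), Btg2 (90.0 ± 49.6), Junb (80.8 ± 40.5), Fosb (27.9 ± 14.4) and Atf3 (18.1 ± 10.1) followed, and their neighbours overlapped too.

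The first comparison asked whether loss of Eed changed the 10 genes in astrocytes. None was called: 0 of 10 passed an adjusted p of 0.05 in edgeR's quasi-likelihood test, in DESeq2 (which gave no p for Atf3 here, nor between populations or in the interaction) or in limma-voom, beside 0.0% of 8956 genes tested with edgeR, 0.0116% with DESeq2 and 0.0% with limma-voom. At an unadjusted p under 0.05 edgeR picked 1 of 10, Atf3, against 1.21% of all genes, while DESeq2 picked 0 of 9 against 3.45% and limma-voom 0 of 10 against 4.08%. In no member were the groups apart in either direction, against 0.0112% of genes for Eed-/- higher and 1.88% for Eed-/- lower. Atf3 had a log2 fold change of 3.94 (SE 1.45, 95% interval 1.09 to 6.79, adjusted p = 0.9999 in edgeR's test), and Junb, with the next smallest p, 1.49 (SE 1.23, interval −0.92 to 3.90). The other 8 lay between −0.94 for Nr4a1 and 1.06 for Fosb, each with an interval across 0. The median of the 10 was 0.11, beside −0.54 for all genes tested, and with RLE size factors 0.67 beside −0.37, where Fos turned from −0.08 to 0.36.

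The Atf3 value rested on Eed-/- astrocyte replicate 1. Without that library its log2 fold change was −1.99, that of Junb 0.89, that of Ier2 −1.09 and that of Fosb −0.60, and the median of the 10 was −0.51, beside −0.44 for all genes. Over the 6 libraries within the limits Atf3 was at −1.49 (interval −6.09 to 3.11) and Junb at 0.95 (interval −1.19 to 3.10). The libraries fell into 2 runs of consecutive library numbers, and within the first and the second run the log2 fold change was 3.81 and 0.34 for Atf3 and 0.97 and 1.65 for Junb. The same library had the highest Fos, Fosb, Junb, Egr1, Atf3 and Ier2 of the 15, while its Jun, Btg2, Nr4a1 and Dusp1 lay inside the range of the Eed+/+ astrocytes. Its microglia and erythroid marker sums are given above, its neuron markers summed to 5.22 CPM and its astrocyte markers to 3120 CPM, each the lowest of the 15 labelled libraries, and 28.8% of its reads aligned uniquely. The part of these cells or of library quality in the 6 high values was not tested. The library with the lowest levels, Eed-/- astrocyte replicate 4, had 0 microglia marker reads and the highest erythroid marker sum (11925 CPM), 26.1% of its reads aligned uniquely, and 71.6% of its uniquely aligned reads outside genes. Within the limits the log2 fold changes in this comparison were smaller than the reach of their intervals, with Fos at 0.17 (−1.13 to 1.46), Jun at −0.27 (−1.27 to 0.74) and Egr1 at 0.50 (−0.28 to 1.28).

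The second comparison asked the same in neurons, with 3 Eed-/- and 2 Eed+/+ libraries. None of the 10 passed an adjusted p of 0.05 with edgeR, DESeq2 or limma-voom, beside 0.0% of 11862 genes with edgeR, 0.219% with DESeq2 and 0.0% with limma-voom. At an unadjusted p under 0.05 there were 0 of 10 with edgeR, against 7.27% of genes, 1 with DESeq2, against 9.46%, and 2 with limma-voom, against 7.75%. In this fit 8 of 10 had a log2 fold change above 0 (9 of 10 with limma-voom), and the median was 1.01, beside 0.15 for all genes. Neuron markers had a median of 1.45 (8 of 11 above 0, 3 at an unadjusted p under 0.05) and the 5 microglia markers tested 1.99 (5 above 0). Astrocyte markers were at −0.20 (3 of 11 above 0, 1 at an unadjusted p under 0.05). Oligodendrocyte lineage markers were at −0.06 (3 of 7 above 0, 1 at an unadjusted p under 0.05). None of these markers was called by edgeR, while DESeq2 called 1 neuron and 1 astrocyte marker. Their part in the values of the 10 genes was not tested. In 5 of 10, Fos, Jun, Ier2, Btg2 and Dusp1, all 3 Eed-/- libraries were above both Eed+/+ libraries, against 13.3% of genes, and in 0 of 10 they were below, against 8.88%. Dusp1 had a log2 fold change of 1.17 (SE 0.66, interval −0.26 to 2.60, adjusted p = 0.74) and Fos 1.27 (SE 0.73, interval −0.30 to 2.84, adjusted p = 0.74). Fosb (−0.65) and Egr1 (−0.14) were on the other side of 0.

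These 10 values are not independent, since most pairs of the genes were correlated across libraries, and 1 of the 2 Eed+/+ neuron libraries, replicate 2, was outside the limits with 343640 gene reads. Against Eed+/+ neuron replicate 1 alone, the within-limits fit gave Junb a log2 fold change of 1.73 (interval 0.31 to 3.15), Fos 1.16 (−0.22 to 2.55) and Egr1 0.37 (−0.89 to 1.63), with adjusted p = 0.99997 for each in edgeR's test. Against replicate 2 alone, Atf3 and Ier2 (log2 fold change 2.56) were called with adjusted p = 0.029 and 0.022 in edgeR's test, when 20.6% of 12635 genes were called as well. Atf3 had no read in that library, so its mean of 40.4 CPM in Eed-/- neurons was at least 4.62-fold higher than the 8.73 CPM that 3 reads would give there, and no fold was measured. The summed astrocyte markers of Eed+/+ neuron replicate 2 (22122 CPM) were above those of the other 4 neuron libraries (7376 to 9250 CPM), and their part in these values was not tested.

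**Figure D3:**
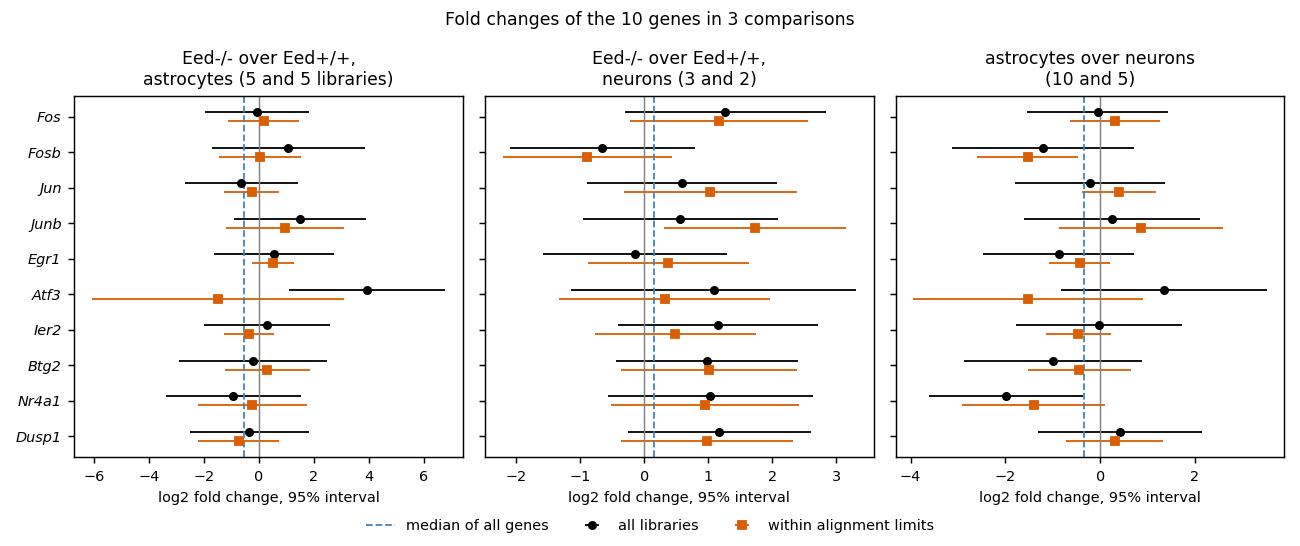
Points give the log2 fold change of each gene with its 95% interval in edgeR's fit, for all labelled libraries (circles) and those within the alignment limits (squares), and the dashed line is the median of all genes tested in all libraries. In astrocytes 9 of 10 intervals over all libraries cross 0, and the exception, Atf3, moves from 3.94 to −1.49 within the limits, and in neurons 8 of 10 circles lie to the right of 0.

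The third comparison set the astrocyte libraries against the neuron libraries over both genotypes. Again 0 of 10 were called with edgeR, DESeq2 or limma-voom, beside 0.015% of 13367 genes with edgeR, 0.0391% with DESeq2 and 0.0% with limma-voom. With an unadjusted p under 0.05 there was 1 of 10 with edgeR, Nr4a1, against 5.51% of genes, 0 of 9 with DESeq2, against 6.18%, and 2 of 10 with limma-voom, against 12.9%. Nr4a1 had an astrocyte over neuron log2 fold change of −1.99 (SE 0.83, interval −3.61 to −0.37, adjusted p = 0.68 in edgeR's test), with a mean of 171 CPM in astrocyte and 806 CPM in neuron libraries. Within the limits it was −1.41 (interval −2.91 to 0.10). Fosb was at −1.21 (interval −3.13 to 0.72) and, within the limits, at −1.53 (interval −2.59 to −0.46, adjusted p = 0.4999 in edgeR's test). Without Eed-/- astrocyte replicate 1 the values were −1.91 for Nr4a1, −1.94 for Fosb and −1.55 for Atf3, and in the first run of library numbers, which held every neuron library, −1.41 for Nr4a1 and −0.42 for Fosb. Over all libraries the remaining 8 lay between −0.9997 for Btg2 and 1.34 for Atf3, which was at −1.52 within the limits, with Fos and Ier2 on the other side of 0 under RLE size factors. The median of the 10 was −0.13, beside −0.34 for all genes. Without Eed-/- astrocyte replicate 1 it was −0.75 beside −0.26, and within the limits −0.44 beside −0.16, so that the median of the 10 went from above to below that of all genes. In the same fit all 11 microglia markers (median 3.97, 9 at an unadjusted p under 0.05) and the 4 erythroid markers tested had log2 fold changes above 0, with none called. Their part in the values of the 10 genes was not tested. No gene of the 10 had the populations apart, against 0.00748% of genes for astrocytes higher and 0.636% for astrocytes lower.

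Whether the genotype effect differed between astrocytes and neurons was tested as an interaction. None of the 10 was called with edgeR, DESeq2 or limma-voom, beside 0.0524% of 13367 genes with edgeR, 0.0433% with DESeq2 and 0.0% with limma-voom. At an unadjusted p under 0.05 there were 0 of 10 with edgeR, against 3.61% of genes, 0 of 9 with DESeq2, against 3.6%, and 1 of 10 with limma-voom, against 10.7%. The differences in log2 fold change ran from −2.12 for Nr4a1 (SE 1.80) to 2.56 for Atf3 (SE 2.06), with a median of −1.20 beside −0.79 for all genes. The 95% intervals ran from −5.65 to 1.41 for Nr4a1 and from −1.47 to 6.59 for Atf3. Both crossed 0, and the data did not tell apart differences inside each interval. In the same fit the erythroid genes Hbb-bs (adjusted p = 3.5e-06) and Hba-a1 (adjusted p = 4.6e-05 in edgeR's test), which encode hemoglobin chains, were called by edgeR but not by DESeq2 or limma-voom, with every erythroid marker at 0 in the 2 Eed-/- astrocyte libraries within the limits. All 11 microglia markers had values above 0 (median 1.13) and the neuron markers a median of −2.76, with none called. Their part in the values of the 10 genes was not tested. Without Eed-/- astrocyte replicate 1, Atf3 was at −3.36 and the median of the 10 at −1.56, beside −0.73 for all genes.

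Most pairs of the 10 genes were positively correlated across libraries. With each level taken on a log2 scale relative to the mean of its cell type, the 45 pairs had a median Spearman correlation of 0.69 over the 15 labelled libraries, and all 45 were above 0. The part of depth, which the genes of a library share, was not tested. Over the 10 libraries within the limits the median was 0.60 and 44 pairs were above 0. Junb with Fos (0.93) and Btg2 with Ier2 (0.92) were the closest pairs, and Fosb with Jun (−0.04) the farthest. Against the mean of the other 9, Dusp1 was highest (0.90) and Fosb lowest (0.24) within the limits, but over all 15 libraries Dusp1 was lowest (0.63), Fos highest (0.94) and Fosb at 0.87. Averaged over the 10 genes, Eed+/+ astrocyte replicate 2 was above the astrocyte mean by 0.97 on the log2 scale and replicate 5 differed from it by −1.48.

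**Figure D4:**
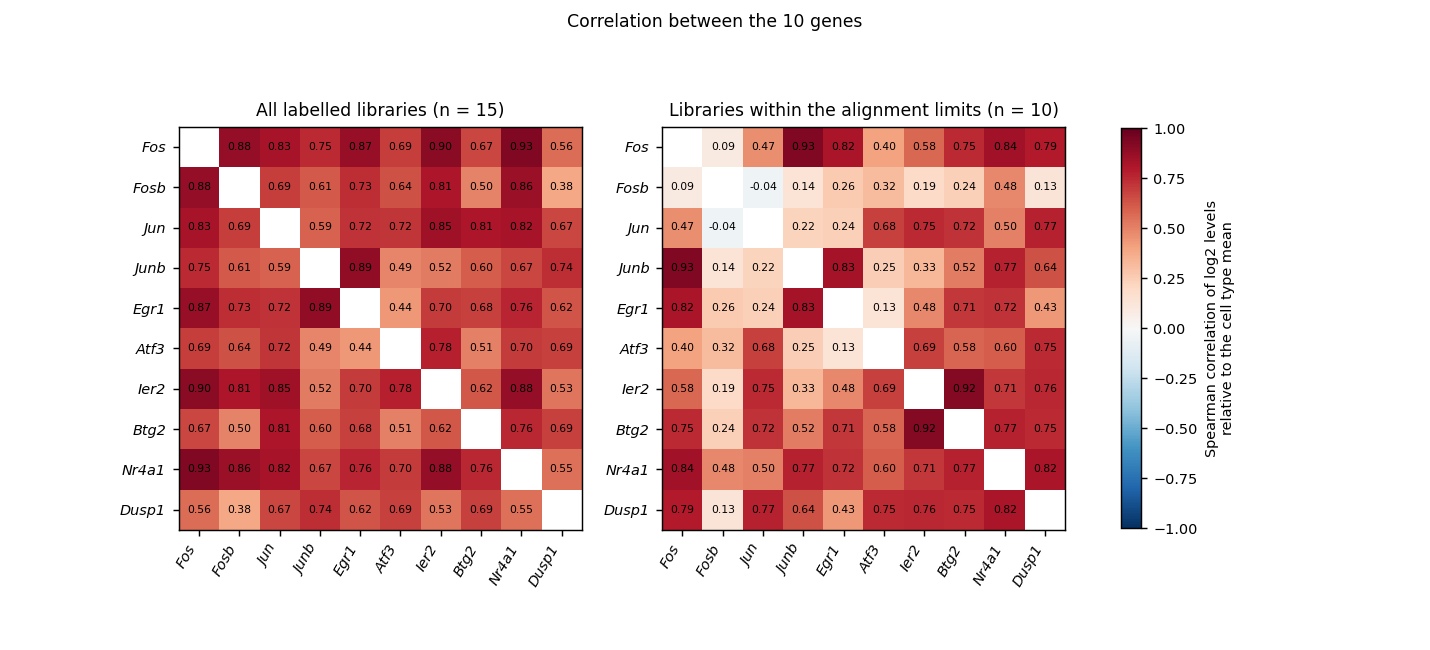
Each cell gives the Spearman correlation of 2 genes over 15 labelled libraries (left) or 10 within the alignment limits (right), on log2 levels relative to the cell type mean. Nearly all cells are red, and on the right the Fosb row is the palest, between −0.04 and 0.48.

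The spread within a group can be read against that of other genes. In Eed+/+ astrocytes the coefficient of variation of the 10 genes had a median of 87.6%, beside 61.8% for all genes tested, and within the limits 67.5% beside 39.7% (n = 4). In Eed-/- neurons it was 31.1% beside 37.4%, in Eed+/+ neurons 31.8% beside 67.6%, and in Eed-/- astrocytes 106% beside 133%. The Eed+/+ astrocytes were thus the group in which the 10 genes varied more than the typical gene.

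A list of 37 further immediate early genes ranged 2.06-fold in Eed+/+ astrocytes. They summed to between 1413 and 2917 CPM in Eed+/+ astrocytes, between 619 and 5822 CPM in Eed-/- astrocytes, at 2944 and 5974 CPM in Eed+/+ neurons and between 2681 and 3265 CPM in Eed-/- neurons. With edgeR, DESeq2 and limma-voom alike, 0 of 21 tested genes were called for genotype in astrocytes and 0 of 34 in neurons, between populations and in the interaction. Its median log2 fold change was 0.22 for genotype in astrocytes and 0.18 in neurons, against −0.54 and 0.15 for all genes. Between populations it was −0.97 against −0.34 for all genes. At an unadjusted p under 0.05 in edgeR's test, 6 of 34 genes were lower and 1 higher in astrocytes, against 5.51% of all genes in either direction. DESeq2 picked 7 of 32, against 6.18%, and limma-voom 13 of 34, against 12.9%. Among the 9950 protein-coding genes compared, the 5 whose levels ranked most like the mean of the 10 over the libraries within the limits were Nqo2 (0.95), Timm44 (0.95), Washc1 (0.94), Egr2 (0.93) and Snx11 (0.92). These 5 are the top of 9950 correlations over 10 libraries, and how high chance alone would reach was not tested. The lowest levels of Nqo2, Egr2 and Snx11 were 0 CPM. Egr2, a zinc finger relative of Egr1, was the only one of the 5 from the immediate early list, whose median correlation was 0.36, beside 0.09 for all genes. The 4 microglia markers abundant enough to be compared had a median of 0.43, with 2 above 0.5, and their part in the pattern was not tested.

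Heat shock genes, 17 chaperones and cofactors that answer to unfolded protein, were compared in the same libraries. They summed to between 1589 and 2307 CPM in Eed+/+ astrocytes, a 1.45-fold range where the 10 genes ranged 9.52-fold (1.45-fold and 3.66-fold within the limits), and their median correlation with the 10 was −0.08. In Eed-/- astrocytes heat shock genes ranged 6.85-fold and the 10 genes 2182-fold, a figure that rests on a single read in replicate 4. Within the limits (n = 2) the ranges there were 1.64-fold for heat shock genes and 1.36-fold for the 10 genes. Heat shock genes ranged 1.46-fold against 1.66-fold for the 10 genes in Eed-/- neurons, and 1.31-fold against 1.12-fold in Eed+/+ neurons. The 19 genes of the integrated stress and endoplasmic reticulum responses, the pathway of ATF4 and DDIT3, ranged 1.23-fold in Eed+/+ astrocytes and 20.5-fold in Eed-/- astrocytes, with a median correlation of 0.11. The 21 upstream kinases and factors, among them the MAP kinases, CREB and SRF, ranged 1.92-fold in Eed+/+ astrocytes with a median of 0.28. No gene of these 3 lists was called in any comparison by edgeR. At an unadjusted p under 0.05 in edgeR's test there were 0 to 3 genes per list and comparison, against 1.21% to 7.27% of all genes. Among the upstream genes DESeq2 picked 4 of 21 for genotype in neurons, against 9.46%, and limma-voom 4 of 21 between populations, against 12.9%. The median log2 fold changes of the 3 lists for genotype in astrocytes were −0.40, −0.22 and −0.28, beside −0.54 for all genes.

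**Figure D5:**
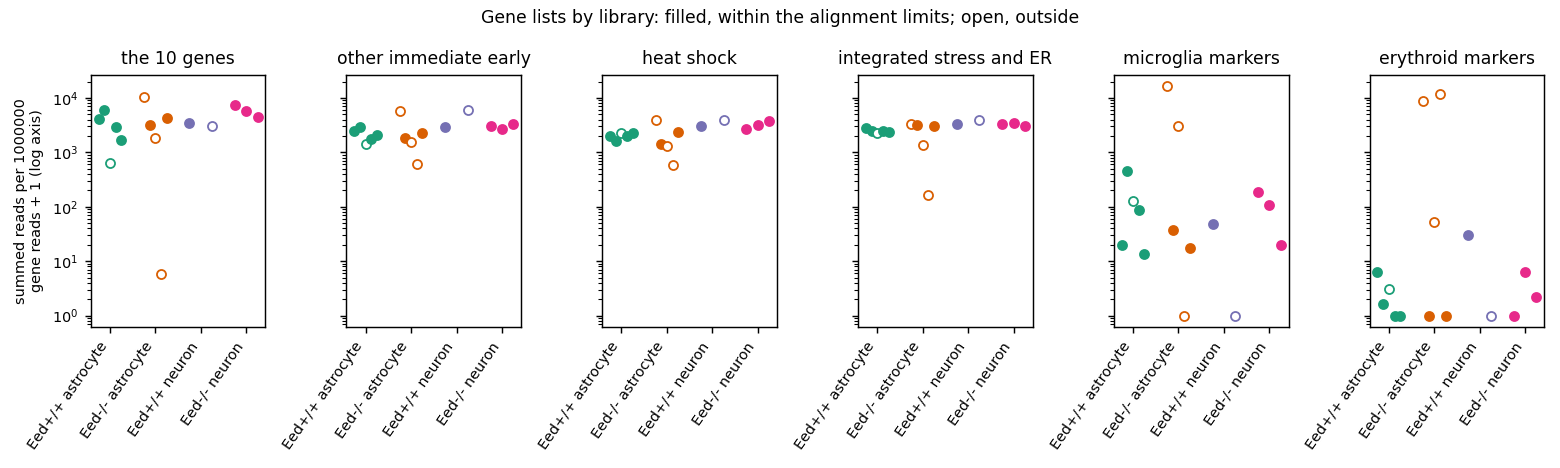
Each point is the summed level of a gene list in 1 labelled library, in reads per 1000000 gene reads plus 1 on a log axis, with open points outside the alignment limits. The heat shock and integrated stress sums of the Eed+/+ astrocytes span 1.45-fold and 1.23-fold while the 10 genes span 9.52-fold, and the microglia sum of 16593 and erythroid sum of 8829 belong to the Eed-/- astrocyte library with the highest sum of the 10 genes, while the highest erythroid sum, 11925, belongs to the one with the lowest.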

How the data were processed

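RNA-seq libraries (Smart-Seq v2, polyA RNA) were made from FACS-isolated green cells of individual animals. The authors aligned reads with STAR to GRCm38 (mm10), per the submitters' processing notes and kept unique alignments, counted per gene by STAR itself. Of the annotation, the release could not be read from the sources used here. Deposited files hold raw counts per gene, not normalized and not pooled. Counting was unstranded (column 2 was used). The 4 lines of totals per file stayed out of library sizes and tests. Of 53379 identifiers, 53274 matched GENCODE mouse release 21 (GRCm38).

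CPM are counts per 1000000 gene reads without further scaling. The main test was the quasi-likelihood F-test of edgeR (version 4.0.16 under R 4.3.3, with TMM factors, filterByExpr and robust fitting). P-values were two-sided and adjusted after Benjamini and Hochberg across every gene tested, with a threshold of 0.05. Genotype was fitted within each cell type, and cell type and interaction in 1 fit over all 15 labelled libraries. Alternatives were RLE size factors, DESeq2 1.42.0, limma-voom with quality weights (limma 3.58.1), other filters on low counts, the libraries within the alignment limits, the replicate number as a block, the run of library numbers, 1 fit over 4 groups, and each library left out in turn. The fits were also run on simulated counts, and no result given here rests on that run. The limits (60% and 1000000 uniquely aligned reads) follow those the study gave for its embryonic libraries. The study set aside some libraries that are not named, so all 15 stayed in. The labels of 1 library named both cell types; it entered no comparison.

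All 10 members were named, with the 5 genes most like the members. From other lists, genes past the threshold in edgeR's main fits of the genotype and cell type comparisons were to be named (none was). The 1 astrocyte and 1 neuron marker that DESeq2 called for genotype in neurons are not named. The 2 erythroid genes named in the interaction fell outside this rule and were chosen after their values were seen. The members and lists were chosen with earlier results of these data known. Promoter windows came from RefSeq (GRCm38.p6), which held 8 of the members. Intervals and floors cover counting error or the spread between libraries, and amplified reads without molecular identifiers are not independent molecules.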

Additional observations from a re-analysis of the deposited data

Results flagged for a closer look

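Among 22 sets of 5 astrocyte libraries (each of the 10 genes and their sum, in each genotype), 4 had a library far from the other 4, by a gap of more than 0.71 of the whole range. Chance gives about 1 in 20 sets where these are independent, and the 22 share their libraries. Eed-/- astrocyte replicate 1 stood apart in Fosb (587 CPM, next 63.5), Atf3 (1929 CPM, next 16.1) and Ier2 (1595 CPM, next 337). Eed-/- astrocyte replicate 5 stood apart in Btg2 (251 CPM, next 71.9). The library without a group held more Fos (3183 CPM) and more Egr1 (1459 CPM) than any labelled library, whose highest values were 2490.5 and 1300.0 CPM.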

How the results depend on the processing

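Over 84 alternatives in the 4 comparisons, 45 of which left out 1 library, edgeR or another tool called 0 of the 10 genes in 83. The exception was genotype in neurons without Eed+/+ neuron replicate 1, with 2 genes (range 0 to 2 over the libraries left out). The median log2 fold change of the 10 ran from −0.68 to 0.67 for genotype in astrocytes, from 0.64 to 1.25 in neurons, from −1.11 to 0.24 between populations and from −2.34 to −0.41 in the interaction. The log2 fold change of Atf3 changed sign for genotype in astrocytes with limma-voom (−2.99), within the alignment limits (−1.49), with DESeq2 within the limits (−1.41) and without Eed-/- astrocyte replicate 1 (range over libraries left out, −1.99 to 4.61). In the interaction it changed sign with limma-voom (−3.98), within the limits (−1.85), under the replicate block (−6.02), with DESeq2 within the limits (−1.76) and over libraries left out (−4.94 to 3.46). The cause was not tested. The median of all genes moved too, from −0.54 in astrocytes to −0.37 with RLE, −0.02 within the limits and −1.81 under the block, from −0.34 between populations to −1.10 under the block, from −0.79 in the interaction to −0.31 with RLE, −0.19 within the limits and −2.55 under the block, and from 0.15 in neurons to 0.66 without Eed+/+ neuron replicate 1. In the interaction 4 of the 10 genes were above 0 in the reported fit and 0 with limma-voom.

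Counts of all genes called at 0.05 moved more. For genotype in astrocytes (0 in the reported fit) they were 1 with DESeq2, 5 with no filter, 24 with a mean count above 10, 46 in 1 fit over 4 groups, 4 in the first run of library numbers, 14 with DESeq2 within the limits and 0 to 1 with a library left out. For genotype in neurons (0) they were 26 with DESeq2, 127 with no filter, 1 within the limits, 3 in 1 fit over 4 groups, 5 with DESeq2 within the limits and 0 to 2601 with a library left out. Between populations (2) they were 5 with DESeq2, 0 with limma-voom, no filter, the limits, the block or the first run, 1 with a mean count above 10, 137 with DESeq2 within the limits and 0 to 5 with a library left out. In the interaction (7) they were 21 with RLE, 0 with limma-voom, the limits or the first run, 2 with no filter or the block, and 1 to 12 with a library left out. Same-numbered libraries deviated together with correlations of −0.25 to 0.15, not all over 0.1, and the sources read do not say whether they came from 1 animal, so the number was not taken as a pairing; the replicate block called 0 of the 10 genes. Fits on 1 run of library numbers and DESeq2 within the limits were added after seeing the data. Where 1 library was left in an arm, it was assumed to vary like the rest. With 2 to 5 libraries a group, and 5 of 15 outside the alignment limits, the differences seen in neurons did not pass at this spread.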

Other observations

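The library whose labels named both cell types (Eed-/- cells, 221456 gene reads, 17.7% uniquely aligned) held 705 reads of Fos, 323 of Egr1 and 52 of Jun, and none of the other 7 genes, which allows up to 13.5 CPM each. The 10 genes summed to 4877 CPM there. Its astrocyte markers summed to 24158 CPM and its neuron markers to 9.03 CPM.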
